A study of Mus musculus with 6 samples.

Results

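The genes described here encode enzymes that break down amino acids in the liver. A list of 46 genes was taken by gene symbol, and every probe set that the platform annotation names with exactly 1 of these symbols was used. Of the 46 genes, 43 had a probe set, 55 probe sets in all, out of 12393 genes named by 1 symbol and 22626 probe sets on the array. Mut was found under its current symbol Mmut. No probe set carried the symbol of Acmsd, Agxt2 or Amt alone, and these 3 genes were not analysed here. Kynu and Dao lay below the filter on dim probe sets, which left 41 genes tested.

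Liver RNA came from 6 male KK/H1J mice, 12 to 14 weeks old and about 35 g, a strain used as a model of polygenic obesity and diabetes. In the BPD group 3 mice (numbers 23, 28 and 36) had received Ad-BPD, an adenovirus for a form of the bifunctional enzyme PFK-2 whose bisphosphatase is inactive. In the GFP group 3 mice (22, 29 and 31) had received Ad-GFP, a control adenovirus carrying green fluorescent protein, at the same stated dose. Both groups thus carried an adenovirus given by tail vein, both were fed freely, and livers were taken 7 days later, each measured on its own array. The promoter that drives either transgene is not given in the sources used here. BPD can make but not degrade fructose 2,6-bisphosphate, which favours the use of glucose over its synthesis, and the study profiled the liver transcriptome under it.

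The liver is the main site at which most amino acids are oxidised, and hepatocytes hold enzymes for it in the cytosol, mitochondria and peroxisomes. Many amino acids have a chain of enzymes of their own, and some of these chains share steps. The carbon skeletons end in pyruvate, in intermediates of the citric acid cycle, from which glucose can be made, or in acetyl-CoA and ketone bodies, while the nitrogen passes to glutamate and the urea cycle. The branched-chain amino acids are an exception in that their transamination takes place largely outside the liver, which receives the keto acids.

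Of the 41 genes tested, 36 had a lower and 0 a higher level in BPD than in GFP livers (limma, adjusted p under 0.05), against 22.2% of all 8151 genes tested that were lower and 8.75% that were higher. The number higher was also 0 at an unadjusted p under 0.05. Only 5 of the 41 did not pass, namely Uroc1, Gldc, Bckdk, Csad and Ddo. The difference was at least 2-fold in 28 of the 36, against 7.13% of all genes that were lower by as much. The median log2 difference of the 41 genes was -1.19, ranging from -3.52 for Prodh to 0.07 for Bckdk, and the median of all genes was -0.22. In these bulk samples fewer cells of a type and less RNA per cell cannot be told apart. Log2 differences here are BPD minus GFP on the scale log2(signal + 16.3), with array medians centred, which understates changes of dim probe sets.

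The direction of the group did not turn with the scaling between arrays, although the number of calls moved. With the scaling the authors deposited, 31 of the 41 were lower and 0 higher, beside 11.1% and 17.2% of all genes. With quantile normalization 30 were lower and 0 higher, beside 12.9% and 12.7% of all genes. Under all 3 scalings 28 of the 41 were called lower, beside 9.24% of all genes, and 0 were called higher, beside 8.38% of all genes. The median of all genes was -0.22 after centring, 0.08 in the deposited scaling and -0.06 after quantile normalization. Relative to it the median of the 41 genes lay at -0.97, -0.97 and -0.83. The centred and deposited values are equal by construction, because centring shifts every gene of an array by the same amount. The 8 genes called after centring but not under every scaling were Tdo2, Afmid, Kmo, Gcsh, Bckdha, Auh, Mccc2 and Pcca.

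**Figure D1:**
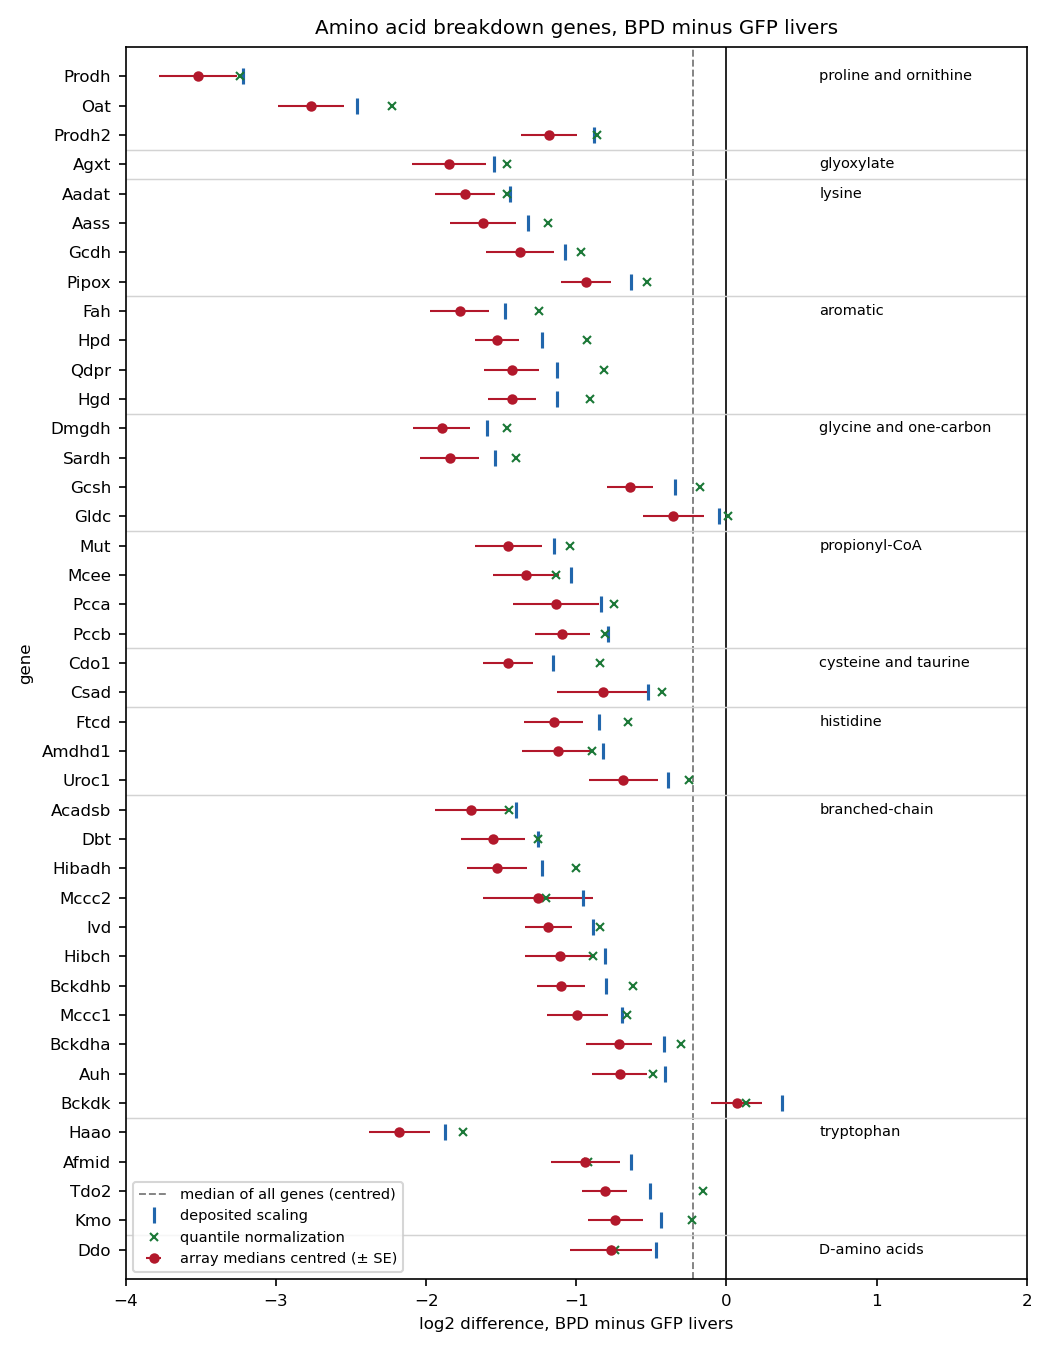
Log2 difference between BPD and GFP livers (x axis) of the 41 amino acid breakdown genes tested (y axis), grouped by amino acid. Circles with bars are the values after centring ± SE (n = 3 livers per group), blue ticks the deposited scaling, green crosses quantile normalization, and the dashed line the median of all genes. Values run from -3.52 for Prodh to 0.07 for Bckdk, Gldc turns to 0.01 with quantile normalization, and no gene was called higher.

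The promoters of the genes with the largest falls, Prodh, Oat and Haao, are shown together with that of Bckdk, which did not fall, and that of Aadat, which carries a match to the HNF4A motif. Each is the stretch of 250 bases before the annotated start in RefSeq (GRCm38.p6), 5′ to 3′ on the strand of the gene. Capitals mark matches, on either strand, to TATAAA (the TATA box), CCAAT (the CCAAT box), GTTAAT (from the site of the hepatocyte factor HNF1), CAAAGTCCA (HNF4A), TTGCNNAA (C/EBP) and CACGTG (E-box).
Prodh promoter, chr16:18089191-18089440, minus strand: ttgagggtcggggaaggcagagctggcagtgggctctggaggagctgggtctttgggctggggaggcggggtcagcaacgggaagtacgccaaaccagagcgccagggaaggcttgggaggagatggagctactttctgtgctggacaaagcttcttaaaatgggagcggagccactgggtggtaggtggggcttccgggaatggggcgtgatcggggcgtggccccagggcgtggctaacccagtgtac
Oat promoter, chr7:132576399-132576648, minus strand: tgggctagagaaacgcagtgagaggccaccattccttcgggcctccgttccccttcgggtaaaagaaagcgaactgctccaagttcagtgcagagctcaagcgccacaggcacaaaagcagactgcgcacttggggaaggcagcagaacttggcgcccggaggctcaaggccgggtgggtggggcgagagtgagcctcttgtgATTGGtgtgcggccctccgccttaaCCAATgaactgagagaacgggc
Haao promoter, chr17:83846791-83847040, minus strand: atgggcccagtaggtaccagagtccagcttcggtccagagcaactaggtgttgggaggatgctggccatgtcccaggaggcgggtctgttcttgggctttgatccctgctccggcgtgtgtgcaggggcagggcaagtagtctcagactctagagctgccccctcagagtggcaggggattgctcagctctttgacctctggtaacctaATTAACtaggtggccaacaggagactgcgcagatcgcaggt
Aadat promoter, chr8:60505874-60506123, plus strand: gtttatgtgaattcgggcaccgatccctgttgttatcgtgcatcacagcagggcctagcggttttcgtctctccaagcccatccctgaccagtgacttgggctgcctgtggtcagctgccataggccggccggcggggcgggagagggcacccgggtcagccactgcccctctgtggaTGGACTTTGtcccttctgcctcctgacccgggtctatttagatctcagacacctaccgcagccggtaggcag
Bckdk promoter, chr7:127903823-127904072, plus strand: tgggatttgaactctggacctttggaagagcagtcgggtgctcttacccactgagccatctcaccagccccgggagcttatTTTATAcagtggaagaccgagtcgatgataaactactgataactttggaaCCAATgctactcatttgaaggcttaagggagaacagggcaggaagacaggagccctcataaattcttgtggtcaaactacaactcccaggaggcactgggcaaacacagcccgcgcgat

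The window of Prodh, the gene with the largest fall, holds none of the 6 motifs, and that of Oat holds CCAAT at 47 and 22 bases before the start. Haao has the HNF1 motif 41 bases before the start, and Aadat the HNF4A motif 72 bases before it. Bckdk holds TATAAA and CCAAT. No matches overlap each other in these 5 windows. By the symbols of the list, RefSeq gave 48 windows for 42 of the 46 genes. Mut was not looked up here under its current symbol Mmut. CCAAT was found in 23 of the 48 (47.9%), beside 33.8% of all 32851 promoter windows. TTGCNNAA was found in 7 (14.6%, beside 9.56%), TATAAA in 6 (12.5%, beside 12.4%), GTTAAT in 4 (8.33%, beside 6.43%) and CACGTG in 3 (6.25%, beside 6.02%). CAAAGTCCA was found in 3 windows (6.25%, beside 0.384%), of which 2 are overlapping windows of Agxt2. A match describes the letters only. The median GC content was 55.6% in these windows and 52.4% in all windows.

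The proline and ornithine genes had the lowest median of any amino acid group, -2.76 over 3 genes. All 3 were lower under every scaling, beside 9.24% of all genes. Prodh, which catalyses the first step of proline oxidation in mitochondria, had signals of 389, 320.0 and 601 in BPD livers 23, 28 and 36, against 3922, 3613 and 4722 in GFP livers 22, 29 and 31. Every BPD liver was far below every GFP liver, and the difference of -3.52 ± 0.26 (SE; limma adjusted p = 0.00014, n = 3 each) ranked 5 from the bottom among all 8151 genes. Oat, the ornithine aminotransferase that joins ornithine to the proline and glutamate pathways, had 1771, 3474 and 2174 in BPD livers, against 13069, 11696 and 14940.2 in GFP livers. It fell by 2.76 ± 0.22 (limma adjusted p = 0.00018), which ranked 16 from the bottom. Prodh2, the paralog that oxidises hydroxyproline, had 1027, 1035 and 1281 in BPD livers, against 1761, 2020.2 and 2442 in GFP livers, a log2 difference of -1.18 ± 0.19 (limma adjusted p = 0.0024).

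Prodh and Prodh2, 2 related enzymes, were set against each other within livers. Within each liver the log2 value of Prodh minus that of Prodh2 was -1.36, -1.64 and -1.07 in BPD livers, against 1.15, 0.83 and 0.95 in GFP livers, so that the falls differed by -2.34 without overlap of the groups. The exact 2-sided permutation test of this difference gave p = 0.1, the smallest that 3 against 3 livers allow, and 0.4 after adjustment over the 4 paralog pairs compared. In the other 3 pairs the groups overlapped. The falls differed by -0.05 between Dmgdh and Sardh (exact permutation p = 0.9), by -0.14 between Pcca and Mccc1 (exact permutation p = 0.6) and by 0.17 between Pccb and Mccc2 (exact permutation p = 0.7), and all 3 had an adjusted p of 0.9.

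**Figure D2:**
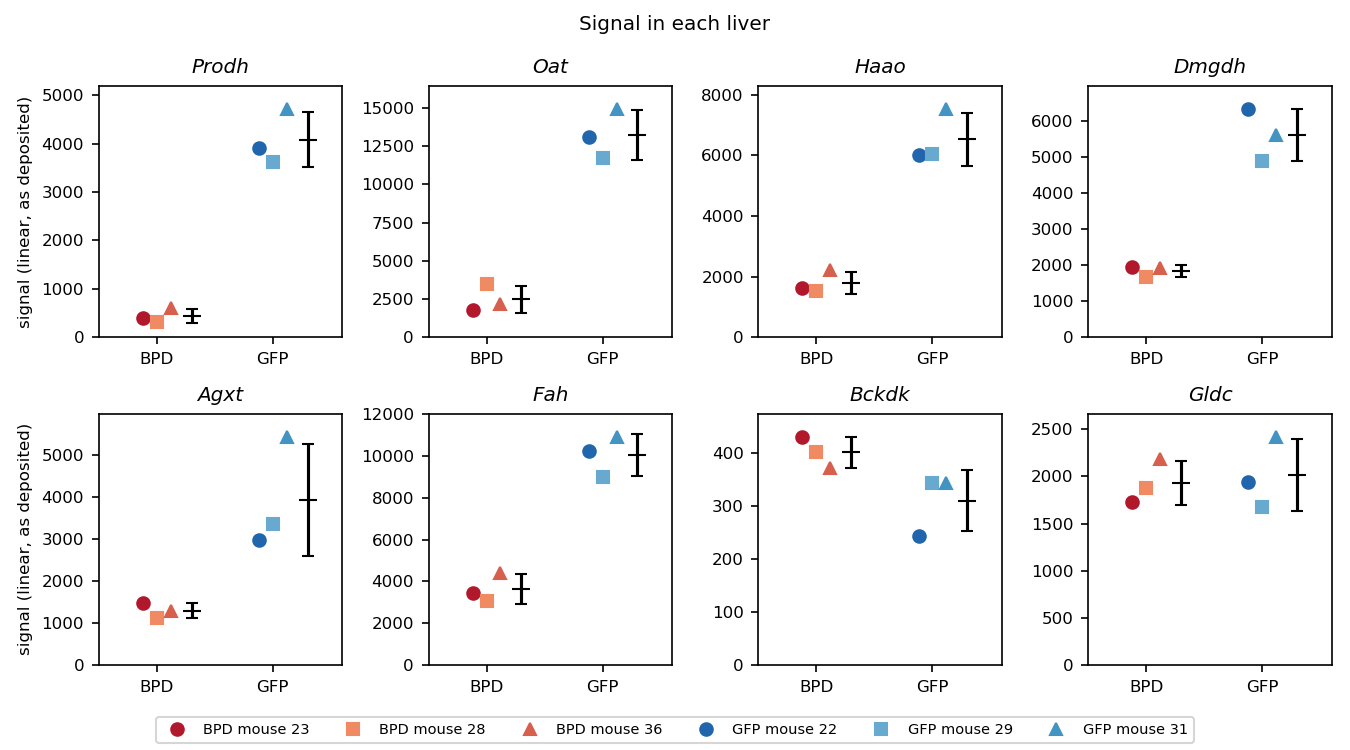
Deposited signal (y axis, linear scale from 0, a scale of its own in each panel) of 8 genes in each BPD liver (red, left) and GFP liver (blue, right). Points are single livers and black bars the mean ± SD (n = 3). For Prodh, Oat, Haao, Dmgdh, Agxt and Fah every BPD liver lies below every GFP liver, for Gldc the groups overlap, and for Bckdk the BPD livers lie above the GFP livers in deposited signal but not after centring.

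The aromatic amino acid genes, which turn phenylalanine and tyrosine into fumarate and acetoacetate, all fell, with a median of -1.48. Under every scaling 4 of 4 were lower, beside 9.24% of all genes. Hpd, which turns 4-hydroxyphenylpyruvate into homogentisate, was among the brightest probe sets of the list, with 7776, 7288 and 8747 in BPD livers, against 18461, 18223 and 18941 in GFP livers. Its difference was -1.53 ± 0.14 (limma adjusted p = 0.00038). Hgd, which opens the ring of homogentisate, had 4168, 3911 and 3851 in BPD livers, against 9262, 7748 and 9169 in GFP livers, a log2 difference of -1.43 ± 0.16 (limma adjusted p = 0.0007). In both genes every BPD liver lay below the lowest GFP liver. Fah, fumarylacetoacetate hydrolase, the last step of the chain, had 3424, 3065 and 4407 in BPD livers, against 10229.7, 8976 and 10927 in GFP livers. It had the largest fall of the chain, at -1.78 ± 0.20 (limma adjusted p = 0.00063). Qdpr, which regenerates the tetrahydrobiopterin cofactor of the aromatic hydroxylases, had 6449, 6496 and 9197 in BPD livers, against 14875, 15553 and 17524 in GFP livers. It fell by 1.43 ± 0.18 (limma adjusted p = 0.00098), and its other kept probe set fell by 1.78.

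The tryptophan genes of the kynurenine pathway fell after centring, but only Haao did so under every scaling. Haao, which opens the ring of 3-hydroxyanthranilate on the way to quinolinate and NAD, had 1608, 1529 and 2204 in BPD livers, against 6011, 6049 and 7534 in GFP livers. Its mean in BPD livers was 27.3% of that in GFP livers, and it fell by 2.18 ± 0.20 (limma adjusted p = 0.00037). Tdo2, the dioxygenase that commits tryptophan to the pathway in liver, had 11294, 9743 and 12226 in BPD livers, against 15745, 16399 and 15064 in GFP livers at its brightest probe set. The groups did not overlap and the difference of -0.81 ± 0.15 passed (limma adjusted p = 0.0044), but it was -0.16 and did not pass with quantile normalization. The other kept probe set of Tdo2 fell by 1.44. Kmo, the monooxygenase that hydroxylates kynurenine, fell by 0.74 ± 0.18, and the formamidase Afmid fell by 0.94 ± 0.23. Kmo did not pass with quantile normalization (-0.23), nor Afmid with the deposited scaling (-0.64). Afmid was dim, with 101, 101 and 157 in BPD livers, against 156, 206 and 218 in GFP livers, and its groups overlapped in deposited signal. All 4 tested genes of the group were thus lower after centring, beside 22.2% of all genes, with a median of -0.88. Under every scaling 1 of the 4 was lower, beside 9.24% of all genes. Kynu, kynureninase, was too dim to test, with 22.1, 36.8 and 39.3 in BPD livers, against 54.3, 71.6 and 117 in GFP livers. The differences in size among these genes were not tested.

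All 4 lysine genes fell under every scaling, beside 9.24% of all genes, with a median of -1.50. Aass, the bifunctional enzyme that starts the saccharopine route in mitochondria, had 2213, 1597 and 2189 in BPD livers, against 5036, 4233 and 5752 in GFP livers, a log2 difference of -1.62 ± 0.22 (limma adjusted p = 0.0012). Aadat, the aminotransferase of 2-aminoadipate that also acts on kynurenine, had 790.1, 678 and 873 in BPD livers, against 2482, 1962 and 1999.7 in GFP livers, a log2 difference of -1.74 ± 0.20 (limma adjusted p = 0.00074). In both genes the highest BPD liver had less than the lowest GFP liver. Gcdh, glutaryl-CoA dehydrogenase, acts on the path that lysine and tryptophan breakdown share. Its signals were 1562, 1354 and 2170.3 in BPD livers, against 3032, 3393 and 4216 in GFP livers. It fell by 1.37 ± 0.23 (limma adjusted p = 0.0028). Pipox, the peroxisomal oxidase of pipecolate and sarcosine, had 1621, 1922 and 2258 in BPD livers, against 2922, 3116 and 2933 in GFP livers. Its difference of -0.94 ± 0.17 was the smallest of the group (limma adjusted p = 0.0039).

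Of the 4 tested genes of glycine and one-carbon metabolism 3 fell after centring, with a median of -1.24. Under every scaling 2 of them fell, Dmgdh and Sardh. The shares of all genes were 22.2% and 9.24%. The differences in size among these 4 genes were not tested. Dmgdh and Sardh remove methyl groups from dimethylglycine and sarcosine on the way from choline to glycine. Dmgdh had 1946, 1655 and 1922 in BPD livers, against 6332, 4893 and 5605 in GFP livers, and fell by 1.90 ± 0.19 (limma adjusted p = 0.00046). Sardh had 1741, 1923 and 2647 in BPD livers, against 5670.1, 5744 and 6834 in GFP livers, and fell by 1.84 ± 0.20 (limma adjusted p = 0.00056). By mean signal these BPD livers had 32.8% of the GFP level for Dmgdh and 34.6% for Sardh. Gldc, the decarboxylase of the cleavage system, had 1724, 1876 and 2184 in BPD livers, against 1943, 1674 and 2423 in GFP livers. These groups overlapped, and the difference of -0.35 ± 0.20 did not pass (limma adjusted p = 0.21). It was 0.01 with quantile normalization. Gcsh, which carries the lipoyl arm of the system, had 2949, 3159.8 and 3318 in BPD livers, against 3934, 3776 and 4234 in GFP livers. It fell by 0.64 ± 0.15 (limma adjusted p = 0.013), but its call was lost in the deposited scaling (-0.34) and under quantile normalization (-0.17).

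Agxt, the aminotransferase that turns glyoxylate into glycine, had 1474, 1121 and 1290.1 in BPD livers, against 2965, 3364 and 5439 in GFP livers. The GFP livers were spread widely, yet all lay above the BPD livers, and Agxt fell by 1.85 ± 0.25 (limma adjusted p = 0.0012). For histidine, 2 of 3 genes fell under every scaling, beside 9.24% of all genes. Ftcd, which passes the formimino group to tetrahydrofolate, had 4362, 3209.6 and 3939.9 in BPD livers, against 7092, 6067 and 7549.7 in GFP livers, a log2 difference of -1.15 ± 0.20 (limma adjusted p = 0.0033). Amdhd1, imidazolonepropionase, had 581, 679 and 803 in BPD livers, against 1145, 965 and 1638 in GFP livers, a log2 difference of -1.12 ± 0.24 (limma adjusted p = 0.0081). The BPD livers were below the GFP livers in both genes. Uroc1, urocanate hydratase, had 2439, 2359 and 2484 in BPD livers, against 4140.1, 3467 and 2235 in GFP livers at its brightest probe set. GFP liver 31 was below all 3 BPD livers in deposited signal, but above them after centring. Its difference of -0.69 ± 0.23 missed the threshold (limma adjusted p = 0.0502), whereas its other kept probe set was at -1.26 and passed (limma adjusted p = 0.0093).

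Of the 11 branched-chain genes 10 fell after centring, with a median of -1.11, and 7 did so under every scaling. The shares of all genes were 22.2% and 9.24%. The complex that oxidises the keto acids of leucine, isoleucine and valine has several subunits, whose differences were not tested against each other. Its core subunit Dbt, the acyltransferase, had 730.0, 802 and 1195 in BPD livers, against 1933, 2117 and 2389 in GFP livers, a log2 difference of -1.55 ± 0.22 (limma adjusted p = 0.0014). Bckdhb, a subunit of the decarboxylase, had 2399.8, 2355 and 2905 in BPD livers, against 4197, 4515 and 4606 in GFP livers, a log2 difference of -1.10 ± 0.16 (limma adjusted p = 0.0017). Its partner Bckdha had 2121, 1730.2 and 2692 in BPD livers, against 2829.6, 2581 and 3208 in GFP livers. The groups overlapped in deposited signal but not after centring. The difference of -0.71 ± 0.22 in Bckdha (limma adjusted p = 0.037) was not kept in the deposited scaling (-0.41) or after quantile normalization (-0.30).

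Bckdk, the kinase that phosphorylates and inactivates this complex, was the exception in the group. It had 430.2, 400.5 and 370.2 in BPD livers, against 243, 343 and 342 in GFP livers. The BPD livers were the higher ones in deposited signal, while after centring the groups overlapped. The difference was 0.07 ± 0.17 (limma adjusted p = 0.79), 0.37 in the deposited scaling and 0.13 after quantile normalization, and did not pass in any of the 3. It turned to -0.01 without BPD mouse 23 and to -0.04 without GFP mouse 22.

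Further down the branched-chain pathways, Acadsb, the dehydrogenase of 2-methylbutyryl-CoA from isoleucine, had 614, 543 and 874 in BPD livers, against 2064, 1548 and 1752 in GFP livers. It fell by 1.70 ± 0.24 (limma adjusted p = 0.0015), the largest fall of the group. Hibadh, a dehydrogenase of valine breakdown, had 3405, 3303 and 5032 in BPD livers, against 8886, 8691 and 9509 in GFP livers, and fell by 1.53 ± 0.20 (limma adjusted p = 0.0011). Its other kept probe set fell by 1.59. Hibch, the hydrolase before it in the same chain, fell by 1.11 ± 0.23 (limma adjusted p = 0.0078). On the leucine branch, Ivd, isovaleryl-CoA dehydrogenase, had 1051, 1426 and 1246 in BPD livers, against 2062, 2386 and 2437 in GFP livers, with a log2 difference of -1.19 ± 0.16 (limma adjusted p = 0.0011). The carboxylase subunits of that branch were at -0.99 ± 0.20 for Mccc1 and -1.26 ± 0.37 for Mccc2, and the hydratase Auh at -0.71 ± 0.18, all 3 passing after centring. Mccc1 passed under every scaling. Mccc2 lost its call with the deposited scaling (-0.96) and under quantile normalization (-1.20), and Auh did not pass with the deposited scaling (-0.41). The Mccc2 groups overlapped in deposited signal, and the Mccc2 call held with only 1 of the mice left out.

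Propionyl-CoA, the end product of valine and isoleucine breakdown, enters the citric acid cycle through 3 enzymes. The 4 genes that encode them all fell after centring, beside 22.2% of all genes, with a median of -1.23. Mut, the B12-dependent mutase that makes succinyl-CoA, had 1572, 1418 and 2270.0 in BPD livers, against 3749.9, 3426 and 4376 in GFP livers, a log2 difference of -1.45 ± 0.23 (limma adjusted p = 0.0022). Its other kept probe set fell by 1.35. Mcee, the epimerase, had 457, 497 and 759 in BPD livers, against 1141, 1118 and 1211 in GFP livers, a log2 difference of -1.33 ± 0.22 (limma adjusted p = 0.0027). The carboxylase subunit Pccb had 775, 1079.8 and 1133 in BPD livers, against 1536, 1677 and 1945 in GFP livers, a log2 difference of -1.09 ± 0.19 (limma adjusted p = 0.0032). In these 3 genes the groups did not overlap. Pcca, the other subunit, fell by 1.14 ± 0.29 (limma adjusted p = 0.017), but its groups overlapped in deposited signal, and with quantile normalization it did not pass (-0.75).

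Cdo1, cysteine dioxygenase, which commits cysteine to taurine and sulfate, had 5331, 5513 and 7496 in BPD livers, against 12592, 13824 and 13974 in GFP livers. It fell by 1.45 ± 0.17 (limma adjusted p = 0.00074) and was lower under every scaling. Csad, the next enzyme towards taurine, had 1384, 1961 and 2849 in BPD livers, against 2065, 4531 and 2467 in GFP livers. The groups overlapped, and the difference of -0.82 ± 0.30 did not pass (limma adjusted p = 0.067). Ddo, the peroxisomal oxidase of D-aspartate, had 129, 126 and 221 in BPD livers, against 277, 192 and 196 in GFP livers, and its difference of -0.77 ± 0.27 did not pass either (limma adjusted p = 0.061). Without BPD mouse 36 both passed, at -1.11 for Csad and -1.03 for Ddo. Neither passed with any other mouse left out, where the differences were as small as -0.54 for Csad and -0.56 for Ddo. Dao, the oxidase of neutral D-amino acids, was too dim to test, with 37.8, 58.3 and 95.5 in BPD livers, against 50.7, 83.3 and 99.4 in GFP livers.

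**Figure D3:**
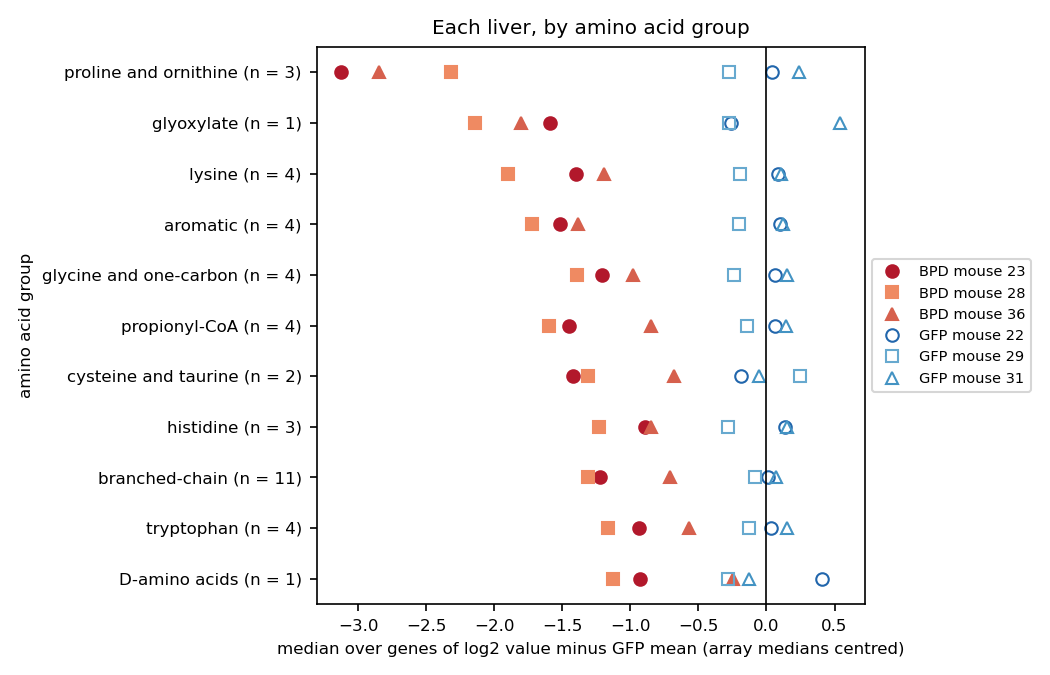
Median over the genes of each amino acid group (y axis, n genes) of the log2 value minus the mean of the GFP livers, after centring (x axis), for each BPD liver (filled) and GFP liver (open). In every group except the D-amino acids, which rest on 1 gene, the 3 BPD livers lie below the 3 GFP livers, and BPD liver 36 is nearest to the GFP livers in all groups but proline and ornithine and glyoxylate.

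The 3 BPD livers were not alike. The median over the 41 genes of the log2 value minus the GFP mean, less the same median taken over every tested gene, came to -1.19, -1.28 and -0.75 in BPD livers 23, 28 and 36, against -0.01, -0.08 and 0.10 in GFP livers 22, 29 and 31. After centring, BPD liver 36 was the highest of the BPD livers in 33 of the 41 genes and the lowest in 0. In deposited signal it was the highest in 33 and the lowest in 2, Hgd and Bckdk. Oat was among the exceptions, with BPD liver 28 the highest. After centring, every BPD liver lay below every GFP liver in 37 of the 41 genes, beside 36.4% of all genes, and in 32 of the 41 with the deposited scaling, beside 18.2% of all genes. With any 1 mouse left out, between 29 and 38 of the 41 genes were lower, and 29 genes passed whichever mouse was left out. With every mouse kept 22.2% of all genes were lower, and their numbers without 1 mouse are given in the last section. How many of all genes passed whichever mouse was left out was not counted. Without BPD mouse 28 the calls of 7 genes were lost, namely Afmid, Kmo, Gcsh, Bckdha, Mccc2, Pcca and Auh, with adjusted p from 0.055 to 0.13. Of these 7 calls, 4 were lost without BPD mouse 23, 5 without GFP mouse 22, 1 without GFP mouse 29 and 5 without GFP mouse 31. BPD liver 36 also had the lowest summed signal of the BPD livers for macrophage markers, at 23191 against 47044 and 43538 in BPD livers 23 and 28, and for neutrophil markers, at 9553 against 19334 and 19482. The part of these markers in the smaller differences of BPD liver 36 was not tested.

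Each enzyme was given 1 textbook location, with Agxt placed in the peroxisome. By this location, 24 of 26 tested genes of mitochondrial enzymes fell after centring, with a median of -1.22. So did 10 of 12 for cytosolic enzymes, with a median of -1.29, and 2 of 3 for peroxisomal enzymes, with a median of -0.94. Among all genes 22.2% were lower, and their median was -0.22. Under all 3 scalings 18 of 26, 8 of 12 and 2 of 3 were lower, beside 9.24% of all genes.

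Other genes of the same pathways, a list of 52 that holds none of the genes above, went the same way. Of the 34 tested, 30 fell and 0 rose after centring, beside 22.2% and 8.75% of all genes, with a median of -0.95. In the deposited scaling 21 were lower, after quantile normalization 19, and under all 3 scalings 18. The shares of all genes were 11.1%, 12.9% and 9.24%. The list was drawn up with earlier results of these data known. Gstz1, the isomerase between Hgd and Fah in tyrosine breakdown, averaged 3274 ± 359 in BPD livers and 7656 ± 355 in GFP livers (± SD over 3 livers each), a log2 difference of -1.53 ± 0.15 (limma adjusted p = 0.00044). Hal, which removes ammonia from histidine before Uroc1 acts, averaged 812 ± 115 in BPD livers and 2616 ± 576 in GFP livers, a log2 difference of -1.95 ± 0.24. Aldh4a1, which follows Prodh in proline oxidation, averaged 1335 ± 451 in BPD livers and 3537 ± 383 in GFP livers, a log2 difference of -1.75 ± 0.23. Each of these 3 neighbours passed under every scaling. The others with the smallest p were Gnmt, which methylates glycine (a log2 difference of -1.53), Aldh7a1 of lysine breakdown (-1.31), Hoga1 of hydroxyproline breakdown (-1.40), the mitochondrial serine hydroxymethyltransferase Shmt2 (-1.33) and the thiosulfate sulfurtransferase Tst (-1.19). The 4 that did not pass were Ddc, Dlst, Mpst and Asrgl1.

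**Figure D4:**
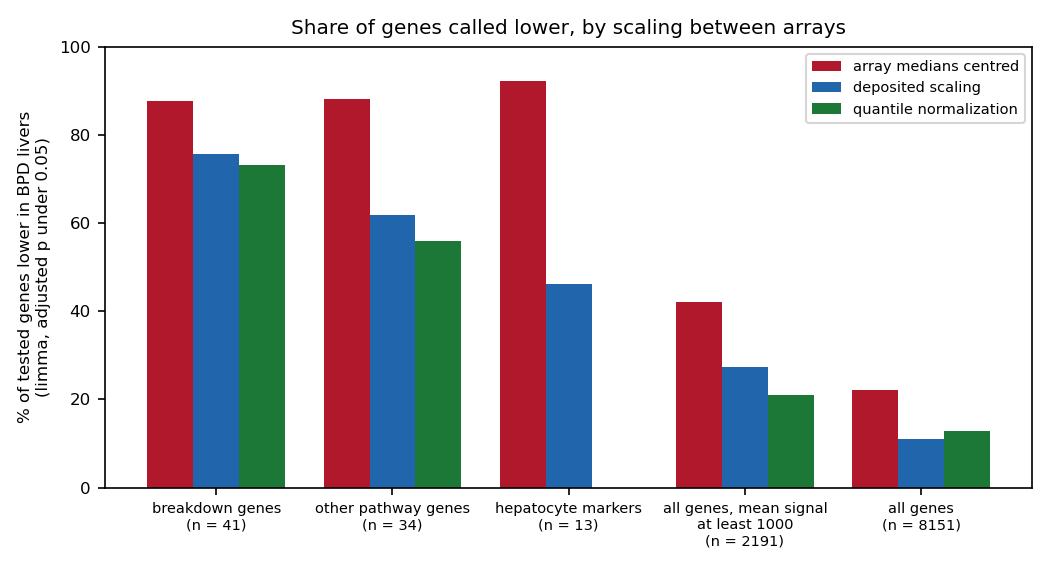
Percentage of tested genes called lower by limma in BPD against GFP livers, at an adjusted p under 0.05 (y axis from 0), for the 41 breakdown genes, 34 other genes of the pathways, 13 hepatocyte markers, 2191 genes with a mean signal of at least 1000 and all 8151 genes. Bars show array medians centred (red), the deposited scaling (blue) and quantile normalization (green). The breakdown genes had 36, 31 and 30 of 41 lower, and the hepatocyte markers 12, 6 and 0 of 13.

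Bright genes were more often lower in these livers than dim ones, and 34 of the 41 breakdown genes had a mean signal of at least 1000, a limit chosen after the values were seen. Of these 34, 31 were lower after centring, 29 in the deposited scaling, 26 after quantile normalization and 26 under all 3 scalings. Among all 2191 genes as bright the shares were 42.2%, 27.4%, 20.9% and 20.6%. None of the 34 was higher in any scaling. Of the bright genes 5.29% were higher after centring, 13% in the deposited scaling, 15.8% after quantile normalization and 5.29% under all 3. Among all genes 12.9% were lower and 12.7% higher after quantile normalization, so there bright genes were more often called in either direction.

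The livers carried the markers of hepatocytes, and markers of several other cell types were higher in BPD livers. Of 13 tested hepatocyte markers 12 were lower after centring, 6 in the deposited scaling and 0 after quantile normalization, and their summed signal was 150999.8 to 172378 in BPD livers, against 202586 to 224711 in GFP livers. The median of these markers was -0.77 after centring, beside -1.19 for the breakdown genes, and -0.12 with quantile normalization, beside -0.89. Most of these markers were brighter than most breakdown genes, and the lists were not matched for signal. Of 13 tested macrophage markers 10 were higher, and the list's summed signal was 23191 to 47044 in BPD livers, against 4861 to 18716 in GFP livers. Neutrophil markers were higher in 5 of 6, with sums of 9553 to 19482 in BPD livers, against 1283 to 3716 in GFP livers. Stellate and matrix genes were higher in 4 of 9, with sums of 18796, 17216 and 5611 in BPD livers 23, 28 and 36, against 3751 to 4982 in GFP livers. All 5 tested proliferation genes were higher, with sums of 3639 to 4462 in BPD livers, against 283 to 627 in GFP livers. Among other markers, 1 of 3 for T and NK cells was higher, 2 of 3 erythroid markers were higher and 1 lower, and of 7 endothelial markers 1 was higher and 1 lower. No B cell, kidney or pancreas marker tested was called, and all 4 measured cholangiocyte markers lay below the filter. No marker was listed at 0. The summed signal of the 43 measured breakdown genes was 87218 to 111289 in BPD livers, against 193119.8 to 213659.8 in GFP livers. The part of these shifts in the falls of the breakdown genes was not tested. The log2 ratio of 3′ to 5′ signal of the Gapdh control was -0.21, -0.44 and -0.42 in BPD livers. In GFP livers it was -0.35, -0.33 and -0.15. With this ratio as a covariate 36 of the 41 genes were lower. The share of all genes lower was 22.2% without the covariate and is not given here with it.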

How the data were processed

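Total liver RNA of 6 mice was measured on 1 array each. The deposited values are MAS5 signal intensities per the submitters' processing notes, and the deposited intensity values have 2% trimmed means of 499.9 on every array. No version or build is given in the sources used here. Array medians were 174 to 197 in BPD livers and 135 to 157 in GFP livers, so the main scale was log2(signal + 16.3), the constant being 10% of the median value, with array medians centred. The deposited log2 scale and quantile normalization were alternatives. Probe sets whose mean log2 value over all arrays lay above the 40th percentile were kept (13575 of 22626 on the main scale). Turned back to signal, that limit was 98.8. A gene was represented by its brightest kept probe set.

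Groups were compared with limma 3.58.1 in R 4.3.3 (eBayes with trend, 2-sided, Benjamini-Hochberg over kept probe sets, threshold 0.05). The number of arrays limits the precision. The labels call each liver a separate mouse. The gene list, its groups and the other lists were chosen with earlier results of these data known. Every measured gene could be named. Signals per liver were to be given for at most the 4 largest changes per amino acid group among genes called under all 3 scalings. Those of other genes were added after their values were seen. Other genes of the pathways were named by the 8 smallest p. The platform annotation gave 1 symbol to 20380 probe sets, several to 691 and none to 1555. Other settings tried were a larger constant, no filter, robust eBayes, other probe sets, the Gapdh ratio as a covariate and leaving out each mouse.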

Additional observations from a re-analysis of the deposited data

How the results depend on the processing

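The number of breakdown genes lower in BPD livers was 36 of 41 and ranged from 30 to 37 under the other settings, with 30 of 33 when probe sets not unique to a transcript were dropped and 35 of 43 without the filter. Leaving out 1 mouse gave 29 to 38, and the number higher was 0 under every setting run. The calls over all genes moved more. Lower genes numbered 1806, but 902 in the deposited scaling and 1053 after quantile normalization, and 929 to 1771 without 1 mouse. Higher genes numbered 713, but 1406 with the deposited scaling, and 384 to 778 without 1 mouse. Lower genes thus made up 71.7% of the calls after centring, 39.1% in the deposited scaling and 50.5% after quantile normalization. Each scaling sets the median of all genes at another level. The sign turned only for genes that were not called, Gldc at 0.0095 after quantile normalization and Bckdk at -0.014 without BPD mouse 23 and -0.043 without GFP mouse 22, in a range of -0.043 to 0.15 without 1 mouse. Uroc1 passed at its other probe set, with robust eBayes, with the Gapdh ratio as a covariate and without GFP mouse 31. The deposited scaling lost 5 of the 36 calls and quantile normalization 6. No paired analysis was run, because the labels give no pairing of mice between the groups and no batch. Dim probe sets limit what can be said of Kynu, Dao and Afmid.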
